A study of Mus musculus with 12 samples.

Results

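A list of 10 fibrillar collagen genes (Col1a1, Col1a2, Col2a1, Col3a1, Col5a1, Col5a2, Col5a3, Col11a1, Col11a2 and Col27a1) was followed in 10T1/2 cells cultured on collagen with or without aortic carboxypeptidase-like protein (ACLP). In the cells on ACLP-containing collagen, transcripts for both chains of type I collagen, for the α1 and α2 chains of type V collagen, for type II collagen and for the α1 chain of type XI collagen rose. Transcripts for type III collagen did not pass the test, and those for the α3 chain of type V and the α2 chain of type XI were slightly lower. The 10 genes were taken by symbol from a table of 56748 rows, and all 10 were among the 16465 genes abundant enough to be tested. Col24a1, also a fibrillar collagen gene, is outside the list and did not pass the filter on low counts.

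C3H10T1/2 (10T1/2 for short) is an established cell line of mouse embryo origin, here labelled wild type. Serum was at 10% for growth and at 0.5% for starvation. After 1 h in suspension the cells were plated for 18 h on 12 kPa hydrogels, in 3 groups of 4 libraries. The paper's methods put an overnight starvation before the suspension, describe the suspension as serum-free and give low serum for plating. The col1 group had a coating of type I collagen at 0.05 mg/mL. The col1-ACLP group had the same coating, polymerised with 30 nM recombinant ACLP, a collagen-binding matrix protein encoded by Aebp1. The col1-ACLP+SB group had the ACLP-containing coating and also received SB431542, an inhibitor of the TGFβ receptor kinase ALK5. The inhibitor was not given to cells on collagen alone, so its own effect cannot be told apart from its effect on the response to ACLP. The study describes the replicates as biological but does not say how they were separated, and p-values here measure the spread between these libraries. Poly(A) RNA was sequenced to between 29246154 and 52201922 counts per library. Replicate 2 of col1 stood apart from the other col1 libraries on the first principal component (-86.7, against -11.1 to -8.97). Without it the numbers of members called in each direction were the same in all 3 comparisons. All 8 mesenchymal or fibroblast markers of a fixed list were detected, including Pdgfra, Prrx1 and Vim.

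Fibrillar collagens are made as procollagen chains with long, uninterrupted triple-helical domains. Chains are hydroxylated and glycosylated in the endoplasmic reticulum, folded into trimers, secreted, trimmed of their propeptides and then assembled into striated fibrils that are crosslinked by lysyl oxidases. Type I, with its α1 and α2 chains, is the main fibril of skin, tendon, bone and scar, and type III is mixed with it in distensible tissues and early wounds. Type V sits inside type I fibrils, where it starts fibril assembly and limits fibril diameter. Type II is the main fibril of cartilage, where type XI plays the part that type V plays in other tissues, and type XXVII is a shorter fibrillar collagen of cartilage and other developing tissues.

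Upstream sequence is shown for 3 of the genes that rose on col1-ACLP and for Col3a1, which did not pass the test. The matched windows of Col5a3, Col11a2 and Col27a1, which did not rise either, are not printed, so those shown do not represent all members. RefSeq promoters on GRCm38.p6 were matched for 7 of the 10 genes, and Col1a1, Col2a1 and Col5a2 were not matched. The 250 bases before the transcription start are given 5′ to 3′ on the strand of the gene. Capitals mark matches, on either strand and at any position, to CCAAT (bound by NF-Y), GGGCGG (Sp1), TATAAA (the letters of a TATA box), CAGACA (SMAD), GGAATG (TEAD) or ACAAAG (SOX). Matches on the other strand read as the reverse complement.
Col1a2, chr6:4505368-4505617, + strand: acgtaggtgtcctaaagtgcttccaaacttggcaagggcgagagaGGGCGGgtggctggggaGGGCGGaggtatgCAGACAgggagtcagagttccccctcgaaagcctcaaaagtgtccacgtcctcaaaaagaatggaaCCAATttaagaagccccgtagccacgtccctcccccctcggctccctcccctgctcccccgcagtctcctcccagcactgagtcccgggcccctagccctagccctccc
Col5a1, chr2:27886175-27886424, + strand: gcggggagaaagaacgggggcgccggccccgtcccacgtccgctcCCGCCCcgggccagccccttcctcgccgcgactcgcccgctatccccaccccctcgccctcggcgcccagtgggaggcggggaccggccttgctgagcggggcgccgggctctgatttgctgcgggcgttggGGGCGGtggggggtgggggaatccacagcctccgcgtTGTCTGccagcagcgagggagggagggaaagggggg
Col11a1, chr3:114030290-114030539, + strand: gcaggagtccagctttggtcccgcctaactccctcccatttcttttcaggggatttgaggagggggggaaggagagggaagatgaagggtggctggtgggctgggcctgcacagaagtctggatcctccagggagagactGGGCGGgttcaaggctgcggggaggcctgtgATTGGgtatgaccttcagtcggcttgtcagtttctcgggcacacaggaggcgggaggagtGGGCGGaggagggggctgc
Col3a1, chr1:45311288-45311537, + strand: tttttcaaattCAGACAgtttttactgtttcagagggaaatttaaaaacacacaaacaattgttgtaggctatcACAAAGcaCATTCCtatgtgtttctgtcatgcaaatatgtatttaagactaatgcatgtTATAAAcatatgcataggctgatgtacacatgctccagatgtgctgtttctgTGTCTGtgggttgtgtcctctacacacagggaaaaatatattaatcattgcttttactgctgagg

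The Col3a1 window was the most AT-rich of the 7, with 35.2% G and C, and the other 6 had between 57.6% and 76.4%. Over all 32851 RefSeq promoters the median was 52.4%. In the windows from 250 bases before to 50 after the start, GGGCGG was found in 6 of the 7 members, Col3a1 being the exception, and in 35.7% of all promoters. Those 6 include Col5a3, Col11a2 and Col27a1, which did not rise on col1-ACLP (62.8%, 57.6% and 59.6% G and C). CCAAT was found in 3 members (Col1a2, Col5a3 and Col11a1) and in 37.4% of all promoters. CAGACA was found in Col1a2, Col3a1 and Col5a1, or 3 of 7, and in 21% of all promoters. TATAAA was found in Col3a1 (bases -117 to -112 from the start) and Col11a2 (-143 to -138), and in 13.6% of all promoters. The only member with GGAATG (14.7% of all promoters) or ACAAAG (18.7%) was Col3a1. No member window held TGANTCA (AP-1, 7.81% of all promoters) or a CArG box (SRF, 1.63%). A match is a run of letters and not evidence of binding.

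Levels were compared between genes per length, as CPM (counts scaled to library size, with TMM factors) per kilobase of the length given in the table. Col1a1 had the highest level in each group, with 1814 ± 24.4 CPM per kb on col1, 3194 ± 379 with ACLP and 2800 ± 301 with ACLP and SB431542 (SD, n = 4). On col1 the order continued with Col3a1 (881 ± 35.8), Col1a2 (588 ± 9.97), Col5a2 (163.2 ± 3.09), Col5a3 (121.5 ± 2.65), Col5a1 (119.5 ± 2.22), Col2a1 (98.6 ± 8.18), Col11a1 (77.0 ± 2.42), Col11a2 (29.8 ± 0.881) and Col27a1 (24.1 ± 1.30 CPM per kb). Among neighbours in this order, the ranges over the 4 libraries overlapped only for Col5a3 and Col5a1. The type II gene stood 7th of the 10 on col1 and 4th in both groups with ACLP, at 343.6 ± 50.9 and 265.1 ± 22.8 CPM per kb, where its range overlapped that of Col5a2. On col1-ACLP the ranges of Col3a1 and Col1a2 also overlapped, and on col1-ACLP+SB those of Col11a2 and Col27a1. The table's lengths are from 1.01 times (Col5a1) to 2.32 times (Col1a2) those of the canonical GENCODE transcripts, which changes the order. With canonical lengths, an alternative added after the data had been seen, Col1a2 lay below Col3a1 on col1 (1364 ± 23.1 against 1554 ± 63.0 CPM per kb) and above it on col1-ACLP (2145 ± 168 against 1635 ± 55.5), and Col2a1 moved from 5th to 4th. Differences between groups of a single gene do not depend on the length.

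**Figure D1:**
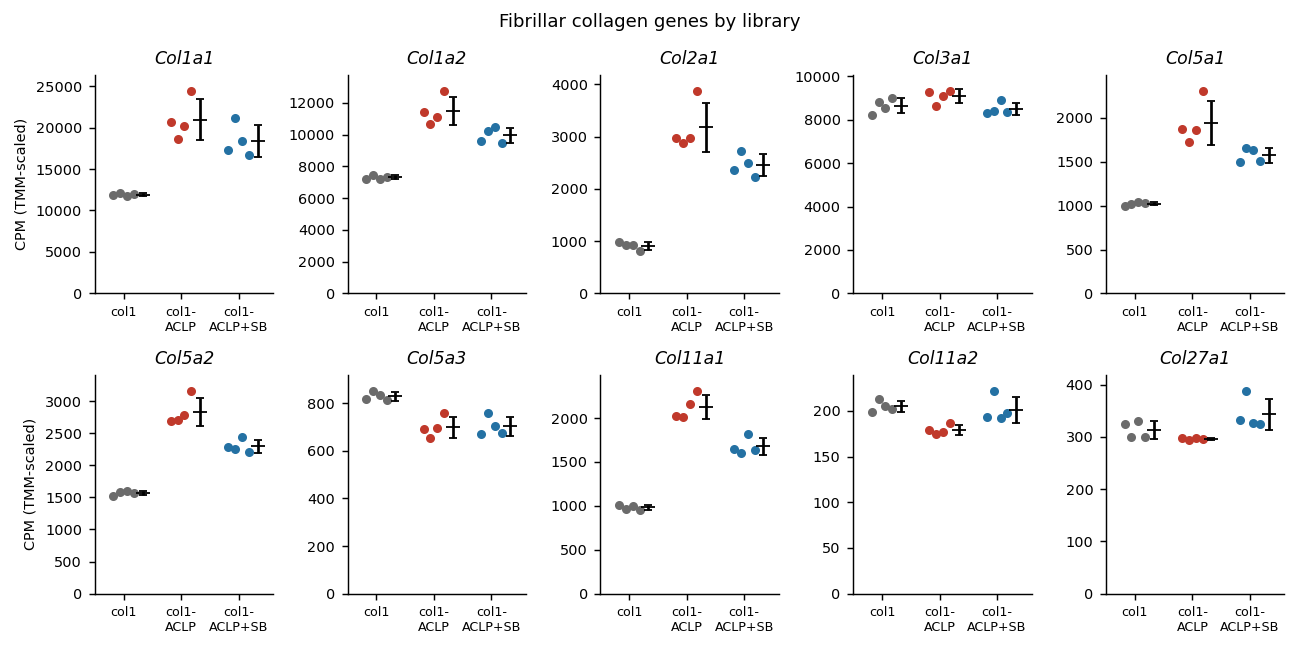
Level of each fibrillar collagen gene in the 12 libraries, in TMM-scaled CPM on axes that start at 0. Points are libraries of col1 (grey), col1-ACLP (red) and col1-ACLP+SB (blue), and the bar beside them is the mean with the SD (n = 4). For Col1a1, Col1a2, Col2a1, Col5a1, Col5a2 and Col11a1 the 8 libraries with ACLP lie above the 4 col1 libraries, and Col3a1 stays between 8210 and 9338 CPM in all 12.

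The 10 genes together took 3.42 ± 0.0463% of the counts of a library on col1, 5.18 ± 0.393% with ACLP and 4.61 ± 0.248% with ACLP and SB431542 (SD, n = 4). The single values were 3.37%, 3.48%, 3.41% and 3.43% on col1, 5.11%, 4.81%, 5.06% and 5.74% on col1-ACLP, and 4.45%, 4.90%, 4.71% and 4.36% on col1-ACLP+SB. Both ACLP groups lay wholly above col1, by 1.76 and 1.18 percentage points, and overlapped each other. An exact two-sided permutation test gave p = 0.0286 for each ACLP group against col1 (0.0429 after Benjamini-Hochberg adjustment over 3 tests), which is the smallest p that 4 libraries against 4 can reach. With group medians in place of means the adjusted value was 0.0571 for both by the same exact test, and neither passed. For col1-ACLP+SB against col1-ACLP, with a difference of -0.574 percentage points, the same exact test gave p = 0.0571. In bulk RNA a change in the number of cells of a type cannot be told apart from a change of RNA per cell.

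Comparison of col1-ACLP with col1 asked how the cells respond to ACLP held in the collagen coating. Calls rest on the quasi-likelihood test of edgeR, with p-values adjusted by the Benjamini-Hochberg method over all 16465 genes, and needed an adjusted p under 0.05 and a log2 fold change beyond 0.58 in size. Of the 10 members, 6 were called higher and 0 lower, where 2.61% of all genes tested were called higher and 2.36% lower. By the adjusted p-value alone 6 were higher and 2 lower, against 9.52% and 8.41% of all genes. At an unadjusted p under 0.05 the counts were 7 higher and 2 lower. The share of all genes at an unadjusted p under 0.05 was not computed, here or for the other comparisons and lists, so such counts have no background. Col3a1, with an unadjusted edgeR p of 0.0409, ranked 4378 by p-value among the 16465 genes. DESeq2 and limma-voom gave the same calls, 6 higher and 0 lower. Tested against the fold limit itself (edgeR's glmTreat), 5 were higher, and Col1a2 did not pass (adjusted p = 0.481). In 9 of the 10 genes the libraries of both groups were fully separate (6 higher and 3 lower), against 10.9% (higher) and 10.3% (lower) of all genes. The median log2 fold change of the members was 0.74, and that of all genes was -0.0099.

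Both chains of type I collagen rose. Col1a1 (ENSMUSG00000001506, chr11:94827050-94843868 of GRCm39) encodes the α1 chain, of which each type I molecule holds a pair. It stood at 11850, 12110, 11730 and 11930 CPM in replicates 1 to 4 of col1 and at 20630, 18580, 20200 and 24440 CPM in those of col1-ACLP. The lowest col1-ACLP library was far above the highest col1 library, and the spread between libraries was also wider with ACLP, with a coefficient of variation of 11.9% against 1.35%. The log2 fold change was 0.82 (SE 0.0613, edgeR adjusted p = 1.772e-10), a 1.76-fold difference. Col1a2 (ENSMUSG00000029661, chr6:4504814-4541544), the gene of the α2 chain, had 7234, 7473, 7195 and 7326 CPM on col1 and 11430, 10670, 11110 and 12760 CPM on col1-ACLP. Again the groups were separate, and replicate 4 of col1-ACLP was the highest for both chains. Its log2 fold change of 0.65 (SE 0.0418, edgeR adjusted p = 9.791e-12) was the smallest among the 6 called members.

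Col3a1 (ENSMUSG00000026043, chr1:45350698-45388866), the single gene of type III collagen, had 8210, 8826, 8543 and 9014 CPM on col1 and 9284, 8658, 9098 and 9338 CPM on col1-ACLP. The groups overlapped, with col1-ACLP replicate 2 below col1 replicates 2 and 4. The log2 fold change was 0.073 (95% interval 0.0033 to 0.142, edgeR adjusted p = 0.154), an interval that lies wholly below that of Col1a1 (0.69 to 0.943). Col5a2 lies on the same chromosome on the opposite strand, with its end 24614 bases from the end of Col3a1, and it rose where Col3a1 did not pass the test.

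Of the 3 type V genes, Col5a1 and Col5a2 rose and Col5a3 was lower. Col5a1 (ENSMUSG00000026837, chr2:27776437-27929526) had 997, 1021, 1040 and 1034 CPM on col1 and 1869, 1727, 1866 and 2310 CPM on col1-ACLP, without overlap. Its log2 fold change was 0.93 (SE 0.06, edgeR adjusted p = 1.265e-11). Col5a2 (ENSMUSG00000026042, chr1:45413481-45542442) had 1523, 1579, 1592 and 1567 CPM on col1 and 2688, 2702, 2781 and 3157 CPM on col1-ACLP. The libraries were again fully separated, with a log2 fold change of 0.86 (SE 0.0449, edgeR adjusted p = 2.869e-13). Col5a3 (ENSMUSG00000004098, chr9:20681346-20726363) encodes the α3 chain, which forms heterotrimers with the other type V chains in a narrower set of tissues. It had 815.8, 850.3, 833.4 and 810.8 CPM on col1 and 691.1, 651.8, 693.4 and 756.7 CPM on col1-ACLP. Here every col1-ACLP library was below every col1 library, at a log2 fold change of -0.25 (SE 0.0471, edgeR adjusted p = 0.000405) that did not reach the fold limit.

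The largest change among the members was that of Col2a1 (ENSMUSG00000022483, chr15:97873483-97902576), the gene of type II collagen. Its levels were 987.9, 921.8, 926.8 and 807 CPM on col1 and 2979, 2874, 2976 and 3878 CPM on col1-ACLP. The groups were widely separated, and replicate 4 of col1-ACLP stood above the other 3. The log2 fold change was 1.80 (SE 0.0758, edgeR adjusted p = 6.382e-15), or 3.49-fold, and 1.69 without that library. Col11a1 (ENSMUSG00000027966, chr3:113824189-114014367), the α1 chain of type XI, had 1015, 965.1, 999.1 and 947.6 CPM on col1 and 2022, 2008, 2161 and 2308 CPM on col1-ACLP. It rose by a log2 fold change of 1.11 (SE 0.047, edgeR adjusted p = 6.382e-15), the next largest of the members. Col11a2 (ENSMUSG00000024330, chr17:34258411-34285659), the α2 chain of type XI, went the other way. It had 199 to 213.1 CPM on col1 and 174.2 to 186.8 CPM on col1-ACLP, for a log2 fold change of -0.19 (SE 0.051, edgeR adjusted p = 0.00792). Col27a1 (ENSMUSG00000045672, chr4:63132241-63253228) encodes type XXVII collagen and had 298.9 to 330.8 CPM on col1 and 294.2 to 297.8 CPM on col1-ACLP. The ranges were separate by a small margin, but the log2 fold change of -0.080 (95% interval -0.19 to 0.03, edgeR adjusted p = 0.36) did not pass the test.

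Markers of cartilage cells were examined beside Col2a1 and Col11a1. Of 10 chondrocyte markers 7 passed the filter on low counts, and by adjusted p-value alone 4 were higher and 1 lower on col1-ACLP, beside 9.52% and 8.41% of all genes. Acan, the gene of aggrecan and a defining marker, had a count of 0 in all 12 libraries. The summed level of the list ran from 570 to 623 CPM on col1, from 676 to 765 CPM on col1-ACLP and from 616 to 698 CPM on col1-ACLP+SB, and most of it was Sox9 (534, 645 and 577 CPM). Hapln1, a link protein of cartilage matrix, had mean levels of 1.53, 8.51 and 4.77 CPM, and Col9a1, a chain of the type IX collagen on the surface of cartilage fibrils, had 13.5, 18.8 and 17.8 CPM. Comp, a cartilage matrix protein and the most abundant of the list after Sox9, was the lower one, at 36.4, 29.7 and 38.4 CPM. These markers were picked for naming after their values were seen. Of the 8 mesenchymal markers 0 were higher and 5 lower, and their sum, most of it Vim (5210 and 4900 CPM), was 6530 to 6780 CPM on col1 and 5920 to 6260 CPM on col1-ACLP. Pdgfra, a growth factor receptor, went from 420 to 248 CPM. Summed smooth muscle markers (65.4 to 70 CPM on col1) and osteoblast markers (9.74 to 11.2 CPM) were also lower on col1-ACLP, at 43.4 to 55.5 CPM and 3.74 to 5.92 CPM, with 1 gene of each list passing as lower. Most of each sum was a single gene, Smtn (65.1 CPM on col1 and 46.3 on col1-ACLP) and Dmp1 (9.65 and 4.37 CPM). The other smooth muscle and osteoblast markers were near the floor, and Des did not fall (1.52 and 1.56 CPM). What part these shifts have in the levels of the collagen genes was not tested.

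Comparison of col1-ACLP+SB with col1 asked what remained of the difference when ALK5 was inhibited. Of the members 4 were called higher and 0 lower, against 1.27% and 1.01% of all genes tested. By adjusted p-value alone 6 were higher and 1 lower (4.6% and 4.54% of all genes), and at an unadjusted p under 0.05 the counts were 7 and 1. Groups were fully separate in 7 genes (6 higher, 1 lower), against 6.7% (higher) and 6.32% (lower) of all genes. DESeq2 and limma-voom also called none lower. The members' median log2 fold change was 0.50, with 0.0046 for all genes. The col1 libraries are the same as in the comparison of col1-ACLP with col1, so these results are not independent.

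The called genes were Col2a1, Col11a1, Col1a1 and Col5a1. Tested against the fold limit itself (edgeR's glmTreat), 2 of them passed, Col2a1 (adjusted p = 4.683e-09) and Col11a1 (adjusted p = 0.008352). Col2a1 had 2353, 2724, 2492 and 2234 CPM on col1-ACLP+SB, every one of them more than the highest col1 library. Its log2 fold change was 1.43 (SE 0.075, edgeR adjusted p = 1.183e-12). Col11a1 had 1650, 1605, 1824 and 1631 CPM and a log2 fold change of 0.77 (edgeR adjusted p = 1.088e-11). Col1a1 had 17330, 21140, 18380 and 16660 CPM, with replicate 2 the highest. Its log2 fold change of 0.63 (SE 0.0611, edgeR adjusted p = 4.423e-08) fell to 0.55, under the fold limit, without that replicate. Col5a1 had 1494, 1658, 1636 and 1510 CPM and a log2 fold change of 0.62 (edgeR adjusted p = 3.36e-08). Col5a2 (2283, 2254, 2437 and 2202 CPM) and Col1a2 (9588, 10210, 10500 and 9486 CPM) were above every col1 library too. Their log2 fold changes were 0.55 and 0.44, below the fold limit, with edgeR adjusted p-values of 1.876e-09 and 2.277e-08. Of the remaining genes, Col5a3 was lower (670.9 to 758.4 CPM, log2 fold change -0.24, edgeR adjusted p = 0.0011). Col3a1, Col11a2 and Col27a1 did not pass the test and their ranges overlapped those of col1. Their log2 fold changes against col1 were -0.024 (95% interval -0.093 to 0.045), -0.028 (-0.133 to 0.077) and 0.13 (0.021 to 0.241). Without replicate 2 of col1-ACLP+SB the value of Col27a1 was 0.068.

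**Figure D2:**
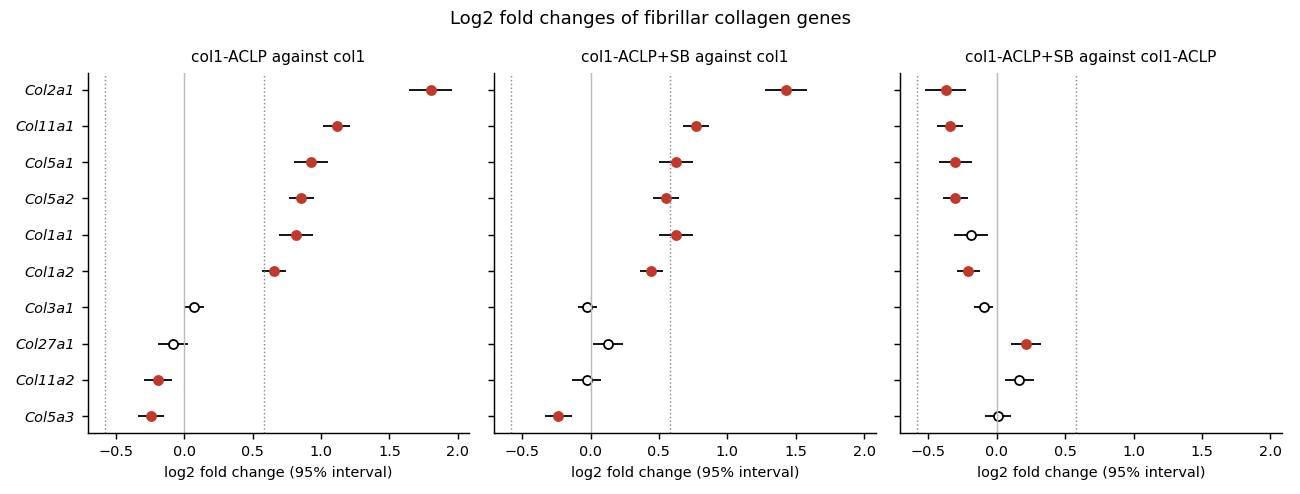
Log2 fold changes of the 10 genes in the 3 comparisons, from edgeR, with 95% intervals. Filled red points have an adjusted p-value under 0.05, open points do not, and dotted lines mark the fold limit of 0.58 in either direction. In col1-ACLP+SB against col1-ACLP no gene reaches the limit and Col2a1 is lowest at -0.37.

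The direct comparison of col1-ACLP+SB with col1-ACLP tested the difference that the inhibitor made on the ACLP-containing coating. With the fold limit, edgeR called 0 members higher and 0 lower, as did DESeq2 and limma-voom, where 0.085% of all genes were called higher and 0.0425% lower. By adjusted p-value alone 5 were lower and 1 higher, against 0.905% and 0.571% of all genes, and at an unadjusted p under 0.05 the counts were 7 and 2. The number of all genes passing in either direction depended on single libraries, going from 243 to 98 without col1-ACLP replicate 4 and to 120 without col1-ACLP+SB replicate 4, and in each of these fits 5 members were lower and 0 higher. The groups were separate in 7 members (5 lower, 2 higher), against 4.52% (lower) and 3.65% (higher) of all genes. The median log2 fold change was -0.20, with 0.0049 for all genes. The 5 lower genes were Col2a1 (-0.37, SE 0.0736, edgeR adjusted p = 0.007405), Col11a1 (-0.34, SE 0.0464, edgeR adjusted p = 0.0001958), Col5a2 (-0.30, SE 0.0446, edgeR adjusted p = 0.0004581), Col5a1 (-0.30, SE 0.0595, edgeR adjusted p = 0.007405) and Col1a2 (-0.21, SE 0.0416, edgeR adjusted p = 0.008422). In each of them the 4 libraries with SB431542 lay between the col1 and the col1-ACLP libraries, without overlap with either. Col1a1 was also lower on average, but its ranges overlapped, since replicate 2 of col1-ACLP+SB (21140 CPM) exceeded replicates 1, 2 and 3 of col1-ACLP. Its log2 fold change was -0.19 (95% interval -0.316 to -0.064, edgeR adjusted p = 0.129). Col3a1 had -0.097 (95% interval -0.166 to -0.027, edgeR adjusted p = 0.173) and Col5a3 had 0.0087 (-0.089 to 0.106). Col27a1 was higher with SB431542, from 325.1 to 387.7 CPM against 294.2 to 297.8 CPM, at a log2 fold change of 0.21 (SE 0.0535, edgeR adjusted p = 0.04436). That call was lost in 10 of the 12 fits that left out 1 library, including the fit without replicate 2 of col1-ACLP+SB, where the log2 fold change was 0.147. Col11a2 had a log2 fold change of 0.17 (95% interval 0.06 to 0.271, edgeR adjusted p = 0.112).

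Ratios between members within a library do not depend on how the libraries were scaled. Ratios are of counts per kb with the table's lengths, so their change between groups can be read but their size depends on the lengths. The log2 ratio of Col1a1 to Col1a2 was 1.63, 1.62, 1.63 and 1.63 in the col1 libraries, 1.77, 1.72, 1.78 and 1.86 on col1-ACLP, and 1.78, 1.97, 1.73 and 1.73 on col1-ACLP+SB. The col1 libraries were nearly identical (SD 0.00627), and all 8 libraries with ACLP lay above them. On a linear scale the mean ratio went from 3.09 to 3.44 and 3.49. The log2 ratio of Col3a1 to Col1a1 was -1.11 to -0.99 on col1, -1.97 to -1.68 on col1-ACLP and -1.91 to -1.58 on col1-ACLP+SB. In linear terms there were 0.486 Col3a1 counts per kb for each of Col1a1 on col1, 0.291 with ACLP and 0.311 with ACLP and SB431542. Each of these differences from col1 reached p = 0.0286, the smallest that the exact permutation test allows, but none of the 15 tests on 5 ratios passed after Benjamini-Hochberg adjustment (smallest adjusted value 0.0857). The log2 ratio of Col5a1 to Col1a1 differed by 0.108 between col1-ACLP and col1 (exact permutation p = 0.0286, adjusted 0.0857) and by 0.0003 between col1-ACLP+SB and col1 (p = 1, exact). For Col5a2 to Col1a1 and Col5a1 to Col5a2 the differences between groups were from -0.113 to 0.070, with exact permutation p-values from 0.0571 to 0.914.

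The remaining ratios were chosen after their values had been seen and are given without a test. Within type V, Col5a3 and Col5a1 had about equal counts per kb on col1 (mean ratio 1.02), and the ratio was 0.454 with ACLP and 0.561 with ACLP and SB431542. For type XI, the ratio of Col11a2 to Col11a1 was 0.387, 0.157 and 0.222 in the 3 groups. In both pairs the 3 groups did not overlap, and col1-ACLP+SB lay between the others. The ratio of Col2a1 to Col1a1 was 0.0542, 0.107 and 0.0948. Col11a1 did not keep pace with Col2a1, with a ratio of 0.783 on col1 and of 0.488 and 0.497 in the groups with ACLP.

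**Figure D3:**
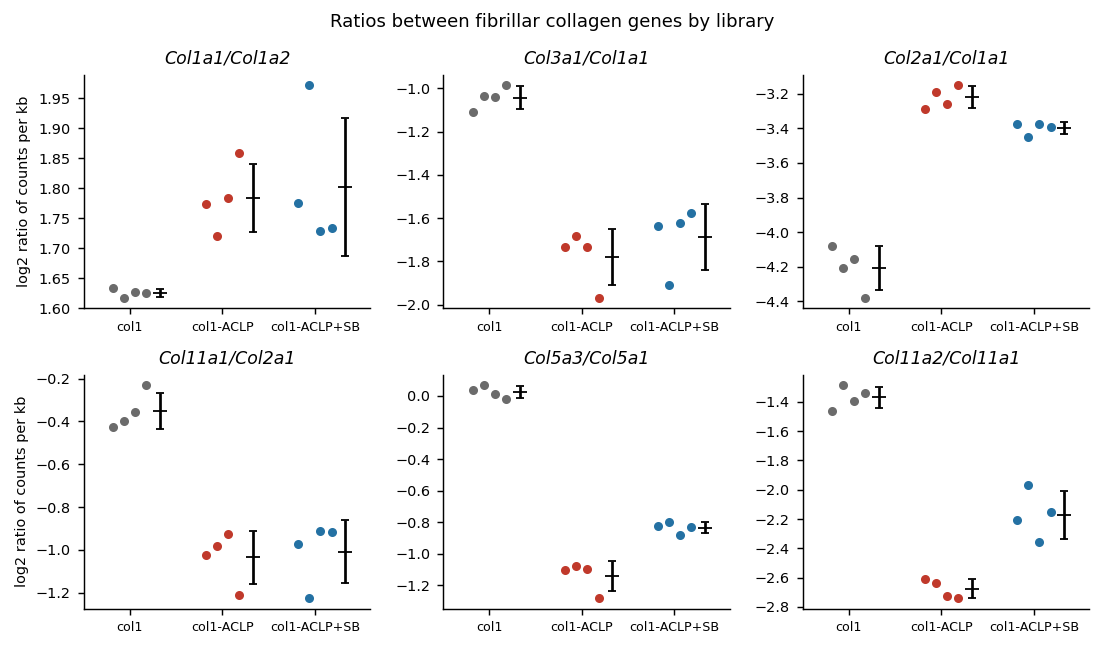
Log2 ratios of counts per kb between pairs of fibrillar collagen genes in the 12 libraries, with the mean and SD of 4 libraries beside the points (grey col1, red col1-ACLP, blue col1-ACLP+SB; the axes do not start at 0). The Col1a1 to Col1a2 ratio is between 1.62 and 1.63 on col1 and at least 1.72 with ACLP, and the Col5a3 to Col5a1 and Col11a2 to Col11a1 ratios fall into 3 separate ranges.

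Libraries within a group also differed along a shared pattern. In TMM-scaled CPM, replicate 4 was the highest of the col1-ACLP libraries for Col1a1, Col1a2, Col2a1, Col3a1, Col5a1, Col5a2, Col5a3, Col11a1 and Col11a2, which are 9 of the 10 genes. For Col3a1 this depended on the scaling, as its share of counts was 0.9011% in replicate 4 and 0.9114% in replicate 1. In col1-ACLP+SB, replicate 2 was the highest for Col1a1, Col2a1, Col5a1, Col5a3, Col11a2 and Col27a1, and replicate 3 for Col1a2, Col3a1, Col5a2 and Col11a1. Col5a3, which was lower on average in the groups with ACLP, was thus highest in the same libraries as Col1a1. In col1-ACLP, Col1a1 and Col5a3 were 18580 and 651.8 CPM in replicate 2 and 24440 and 756.7 CPM in replicate 4. In col1-ACLP+SB, replicate 4 had 16660 and 674.8 CPM and replicate 2 had 21140 and 758.4 CPM. In these 2 groups the direction between libraries was therefore opposite to that between groups for this pair of genes. Within col1, replicate 2 was highest for both (12110 and 850.3 CPM), but replicate 4, next for Col1a1 (11930 CPM), was lowest for Col5a3 (810.8 CPM).

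**Figure D4:**
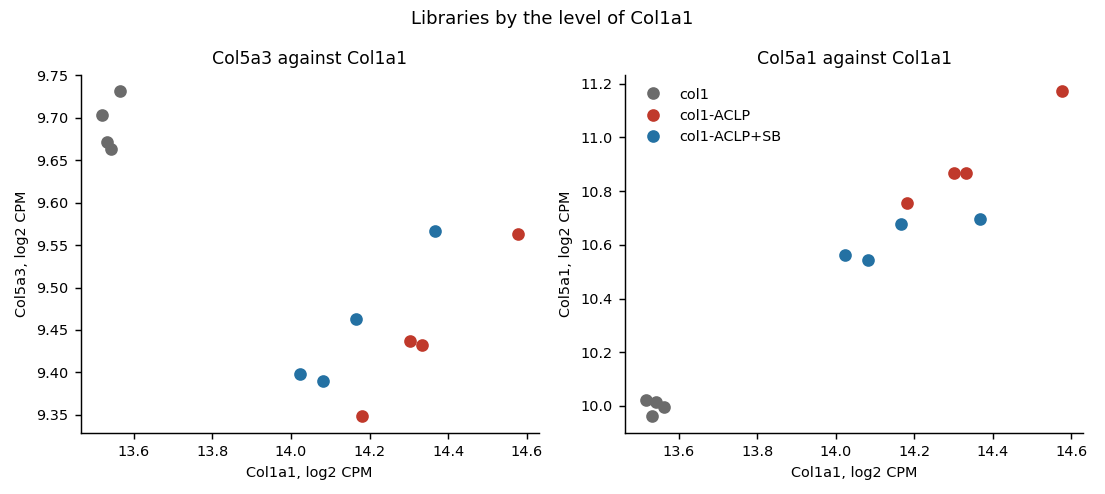
Levels of Col5a3 (left) and Col5a1 (right) against Col1a1 in the 12 libraries, in log2 CPM, with libraries coloured by group. Col5a1 rises with Col1a1 across groups, whereas Col5a3 is highest in the col1 libraries but, among those with ACLP, is high in the libraries with the most Col1a1.

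Most genes for procollagen maturation in the endoplasmic reticulum were also higher with ACLP. Of 20 such genes, all tested, 14 were higher and 0 lower on col1-ACLP against col1 by edgeR's adjusted p-value alone, against 9.52% and 8.41% of all genes, and their median log2 fold change was 0.30. At an unadjusted p under 0.05 the counts were 14 and 1. DESeq2 found 13 higher and 0 lower, and limma-voom 14 and 0. With the fold limit 5 were called higher (2.61% of all genes). P4ha1, a catalytic subunit of prolyl 4-hydroxylase, went from 213.6 ± 11.6 to 390.1 ± 21.7 CPM (log2 fold change 0.87, edgeR adjusted p = 8.198e-13). Plod1, a lysyl hydroxylase, had a log2 fold change of 0.65, P4ha2 of 0.63 and P4ha3, named after its value was seen, of 0.60. Colgalt2, a collagen galactosyltransferase, was the other called gene, on counts of 0, 0, 0 and 2 on col1 and 4, 24, 18 and 2 on col1-ACLP, which are too few for a fold change. On col1-ACLP+SB against col1, 11 were higher and 0 lower, where 4.6% and 4.54% of all genes were (14 and 1 at an unadjusted p under 0.05, and 12 and 0 by DESeq2), with P4ha1 at 0.76 and P4ha2 at 0.61. Between the groups with ACLP, edgeR and limma-voom found 0 higher and 0 lower and DESeq2 0 and 2, with 0 and 5 in edgeR at an unadjusted p under 0.05. Of all genes 0.571% were higher and 0.905% lower there by edgeR's adjusted p-value alone, so a count of 0 is near that share.

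Genes for later steps of fibril formation went both ways. Of the propeptide-processing genes 7 of 9 were tested, and 2 were higher and 2 lower on col1-ACLP by edgeR's adjusted p-value alone, beside 9.52% and 8.41% of all genes. Adamts14, a procollagen N-proteinase, fell from 37.2 ± 1.78 to 10.8 ± 1.74 CPM (log2 fold change -1.78, edgeR adjusted p = 1.557e-11), and Pcolce2, an enhancer of the C-proteinase, had a log2 fold change of 0.60. Of 14 tested genes for crosslinking and fibril organisation 7 were higher and 3 lower, to be read beside the same shares of all genes. The lysyl oxidases Lox and Loxl4, the latter named after its value was seen, had log2 fold changes of 1.57 and 1.32. Loxl1, also named after its value was seen, was lower (-0.37, edgeR adjusted p = 3.316e-05), and Loxl2 and Loxl3 did not pass. Among the small leucine-rich proteoglycans that coat fibrils, Fmod had 1.34, while Lum (-1.76) and Dcn (-1.65) fell. Bgn, the most abundant of them and named after its value was seen, rose from 3356 to 4525 CPM (0.43, edgeR adjusted p = 1.169e-09), and Ogn did not pass. With SB431542 and against col1-ACLP, 0 of these 14 were higher and 3 were lower by edgeR's adjusted p-value alone, where 0.571% and 0.905% of all genes passed in edgeR. DESeq2 found 1 and 4, and limma-voom 0 and 4. In either direction DESeq2 passed 568 of all genes in this comparison, limma-voom 259 and edgeR 243.

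Among transcription factors known to act on fibrillar collagen genes, Scx was the one called. Scx encodes scleraxis, a regulator of collagen genes in tendon, and went from 4.65 ± 0.643 CPM on col1 to 22.5 ± 3.74 CPM on col1-ACLP (log2 fold change 2.27, edgeR adjusted p = 7.137e-12) and 16.9 ± 2.71 CPM on col1-ACLP+SB. Of the 19 tested 8 were higher and 3 lower on col1-ACLP by edgeR's adjusted p-value alone (9.52% and 8.41% of all genes), with a median log2 fold change of 0.093. Without col1 replicate 2 the number lower was 2. The next genes were named after their values had been seen. Sox9 and Sox6, regulators of Col2a1 and Col11a2 in cartilage, had log2 fold changes of 0.27 (edgeR adjusted p = 0.0002084) and 0.48 (edgeR adjusted p = 4.32e-07). Smad3, a transducer of TGFβ signals, had -0.35 (edgeR adjusted p = 1.335e-05). Smad2, another such transducer, went the other way (0.22, edgeR adjusted p = 0.008205), and Smad4 did not pass (0.093). Sp1, whose motif was the most frequent in the member promoters, had -0.027, and Nfya, a subunit of NF-Y, had -0.016, neither of which passed. Of the other NF-Y subunits, Nfyc was higher (0.32, edgeR adjusted p = 0.01372) and Nfyb did not pass (-0.016).

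Of 34 other collagen genes 26 were tested, and 5 were called higher and 1 lower on col1-ACLP, against 2.61% and 2.36% of all genes. By edgeR's adjusted p-value alone 10 were higher and 4 lower (9.52% and 8.41% of all genes), and DESeq2 called 5 higher and 2 lower with the fold limit. Among the 5 called higher, Col8a1, a short-chain collagen, had the largest log2 fold change at 3.25, followed by Col10a1 (1.13), Col8a2 (0.90) and Col12a1 (0.85). Col12a1, a collagen that associates with type I fibrils, was named after its value was seen. Col19a1 had 2.45 but did not pass (edgeR adjusted p = 0.05665). Col18a1, a basement membrane collagen, fell by 1.27 on the log2 scale. Col6a1 and Col6a2, chains of the microfibrillar type VI collagen and also named after their values were seen, were lower without reaching the fold limit, at 4968 ± 169 against 6663 ± 228 CPM (log2 fold change -0.42) and 3088 ± 140 against 4221 ± 117 CPM (-0.45). The median log2 fold change over these 26 genes was 0.17.

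**Figure D5:**
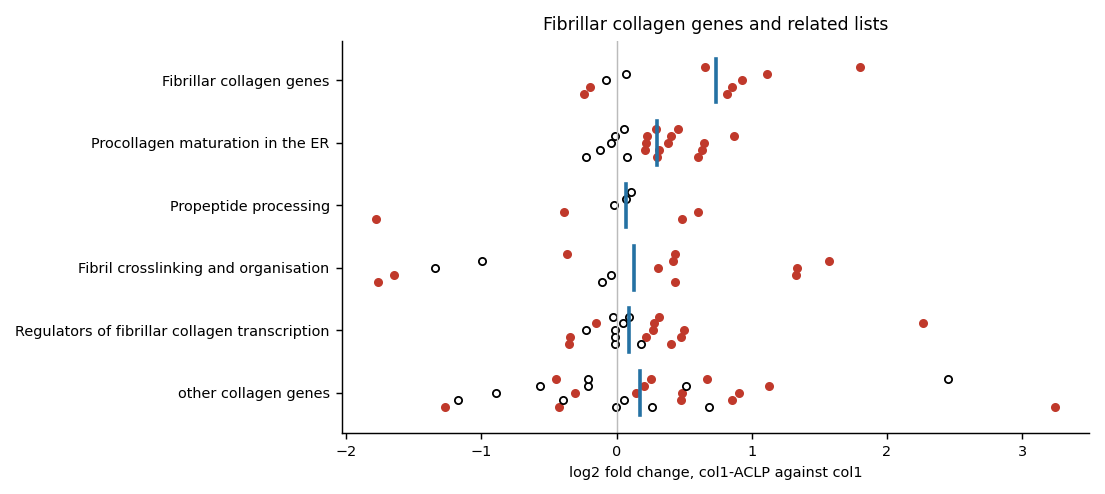
Log2 fold changes on col1-ACLP against col1 for the fibrillar collagen genes and 5 related lists. Each point is a tested gene, filled red where edgeR's adjusted p-value is under 0.05 and open otherwise, and blue bars are the medians of the lists (0.74 for the fibrillar collagen genes, 0.30 for procollagen maturation); Colgalt2 is counted in its median but not drawn, since its counts on col1 were 0 to 2.

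Genes with the pattern most like that of each member were sought among 9149 genes outside the list with a mean of at least 10 CPM, by Pearson's r of log2 CPM over the 12 libraries. These values describe the libraries, which share their groups, and carry no test. The 5 genes nearest to Col1a1 were Sars and Aars (r = 0.994 each), Pck2 (0.993), Serpinh1 (0.989) and Cspg4 (0.988). Sars and Aars encode tRNA synthetases, Pck2 the mitochondrial phosphoenolpyruvate carboxykinase, Serpinh1 the procollagen chaperone HSP47, and Cspg4 the proteoglycan NG2. Their r with Col1a1 after removal of the group means was 0.96, 0.98, 0.922, 0.887 and 0.927. The nearest gene outside the list was Fzd8 for Col1a2 (0.994), Trpv4 for Col2a1 (0.996), Cspg4 for Col5a1 (0.993), Lgr4 for Col5a2 (0.995) and Cdh2 for Col11a1 (0.994). For the members that were not called it was Cpd for Col3a1 (0.899), Zyx for Col5a3 (0.969), Rab34 for Col11a2 (0.953) and Abcc5 for Col27a1 (0.938).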

How the data were processed

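RNA-seq counts of 12 libraries were analysed, with 4 in each of col1, col1-ACLP and col1-ACLP+SB, grouped by their labels. The authors prepared poly(A) libraries, aligned the read pairs to the mouse genome with HISAT2 and deposited raw counts per gene. The paper names GRCm39 and the submitters' processing notes name mm10. All 10 members lie on the chromosome and strand that GENCODE vM39 (GRCm39) gives, 2 with the same start and end. The counting tool, strand setting and treatment of multimapped reads are not given in the sources used here. Genes on the table that overlap a member had at most 378 counts in any library.

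All 12 libraries were fitted together in edgeR 4.0.16 (R 4.3.3), after filterByExpr (16465 genes kept, 40283 dropped) and TMM scaling, by glmQLFit and glmQLFTest on group alone, with Benjamini-Hochberg adjustment over all genes tested. The limits of 0.05 on adjusted p and 0.58 on log2 fold change are those of the paper, which used DESeq2. The SE of a log2 fold change is its size over the square root of the quasi-likelihood F. Shares and ratios were compared by an exact two-sided permutation test over 35 splits into 4 and 4. Depth per library ran from 29246154 to 52201922 counts, and the common dispersion over all genes had a square root of 0.153. Pairs of replicates differed beyond sampling noise (chi-square per degree of freedom 7.49 to 19.7). On simulated counts with a log2 fold change of 1, 143 of 200, 74 of 100 and 66 of 100 changed genes were recovered among 16016 tested in col1-ACLP against col1, col1-ACLP+SB against col1 and col1-ACLP+SB against col1-ACLP, with 2 false calls in each.

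Named genes were the 10 members, up to 4 called genes per list and comparison by size of log2 fold change, and the genes outside the list most alike to each member, beside cell type markers and other genes marked as named after their values were seen. The members and lists were chosen with earlier results of these data known. Alternatives were other size factors, filters, tools (DESeq2 1.42.0, limma-voom of limma 3.58.1), thresholds, a replicate block, medians for means, and each library left out in turn. Canonical transcript lengths, and the related lists without col1 replicate 2, were alternatives chosen after seeing the data.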

Additional observations from a re-analysis of the deposited data

Results flagged for a closer look

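Of 48 sets of 4 libraries (members, their share of counts and 5 ratios, by group), 4 held a library far from the other 3 by Dixon's test, and chance flags about 1 in 20. Col2a1 in col1-ACLP was 3878 CPM in replicate 4 and 2874 to 2979 CPM in the others. Col3a1 in col1-ACLP+SB was 8920 CPM in replicate 3 and 8324 to 8414 CPM in the others. Col27a1 in col1-ACLP+SB was 387.7 CPM in replicate 2 and 325.1 to 332.9 CPM in the others. The log2 ratio of Col5a2 to Col1a1 was -3.777 in the same library and -3.472 to -3.462 in the others, while its Col1a1 level, 21140 CPM, was the highest of its group.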

How the results depend on the processing

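Across the alternatives, 641 of 660 refitted member fold changes kept their direction and their side of the adjusted p-value, and 257 of 276 counts of members stayed within 1.5 times the value reported. With adjusted p alone in place of the fold limit, 2 members were lower on col1-ACLP than on col1, 1 was lower on col1-ACLP+SB than on col1, and between the ACLP groups 1 was higher and 5 lower. Tested against the fold limit itself (glmTreat), 2 members in place of 4 were higher on col1-ACLP+SB against col1. Between the ACLP groups the number higher by adjusted p alone was 2 with library size alone and with DESeq2 (Col11a2 joined Col27a1), and 0 with only the 2 groups compared. Replicate numbers did not pair the libraries (correlations of deviations from -0.0372 to 0.036, with 2 of 12 libraries nearest to their own number). With the replicate block that number was 0, Col27a1 having a log2 fold change of 0.21, and no other member call changed. With 1 library left out it ranged from 0 to 1, the number lower from 5 to 6, the number called higher on col1-ACLP+SB against col1 from 3 (without col1-ACLP+SB replicate 2) to 4, and the log2 fold change of Col27a1 between the ACLP groups from 0.147 to 0.235. Col1a1 between the ACLP groups ranged from -0.265 to -0.109 and passed in 2 of the 12 fits, and also with no filter on low counts (-0.20). Col5a3 there changed sign, from -0.0306 to 0.0486. On col1-ACLP+SB against col1, where they passed in none of the 12 fits, Col3a1 ranged from -0.0476 to -0.0028, Col11a2 from -0.0771 to -0.0051 and Col27a1 from 0.068 to 0.158. Over all genes, the number passing between the ACLP groups was 243, and it was 154, 150 and 98 without col1-ACLP replicate 1, 3 or 4, 120 without col1-ACLP+SB replicate 4, 568 with DESeq2 and 428 with no filter. The number called there was 21, against 10 and 11 without the 4th replicate of col1-ACLP or col1-ACLP+SB, and 46 with DESeq2 or no filter. With glmTreat 230, 81 and 0 genes were called in the 3 comparisons in place of 819, 376 and 21. With group medians, the share of counts on the members differed from col1 by 1.66 percentage points (col1-ACLP) and 1.16 (col1-ACLP+SB), each with an adjusted p of 0.0571 by the exact permutation test. Medians also reversed 3 ratio differences that had not passed, to -0.024 for Col1a1/Col1a2 and -0.0096 for Col5a1/Col5a2 between the ACLP groups, and 0.012 for Col5a2/Col1a1 on col1-ACLP+SB against col1. Leaving out 1 library gave ranges of -0.0385 to 0.0429, -0.0276 to 0.0386 and -0.0972 to 0.0077 for these, and -0.0251 to 0.0444 for Col5a1/Col1a1 on col1-ACLP+SB against col1. Without col1 replicate 2, 1 propeptide-processing gene was lower between the ACLP groups in place of 0, regulators lower were 2 in place of 3 on col1-ACLP against col1, and on col1-ACLP+SB against col1 they were 5 in place of 4 higher and 1 in place of 2 lower. The cause of these changes was not tested, and no scaling moved the median of all genes by more than 0.1 on the log2 scale.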
